A study of Mus musculus with 6 samples.

Results

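Dual-specificity phosphatases remove phosphate from both tyrosine and threonine or serine residues of the same substrate, and the best known of them switch off the mitogen-activated protein kinases (MAPK: ERK, JNK and p38). The typical MAPK phosphatases carry a kinase-binding domain, while the small atypical members lack it. Several typical members are themselves transcribed in response to MAPK signalling, so their transcripts are often read as negative-feedback genes. The genes described here are 10 listed members, chosen by gene symbol: Dusp1, Dusp3, Dusp4, Dusp5, Dusp6, Dusp7, Dusp8, Dusp10, Dusp13 and Dusp26. All 10 are among the 54232 genes of the count table, and all 10 passed the filter on low counts, which left 14335 genes. The group was picked because Dusp26 was low in the mutant, so the mutant against wild-type values of the listed genes are given as a description, with a standard error (SE) and no p-value.

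RNA of the tibialis anterior, the fast shin muscle, was sequenced from C57BL6 mice at an age of 1 month. Wild-type animals (genotype WT) gave 3 libraries, named WT 1, WT 2 and WT 3. Animals in which exon 51 of the dystrophin gene Dmd is deleted (genotype Delta 51) gave the other 3, named dEx51 4, dEx51 5 and dEx51 6. The labels name no treatment and call each library a biological replicate. Whole muscle was used, so fewer cells of a type and less RNA per cell cannot be told apart in any value below.

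Each library held between 15681945 and 21020353 counts assigned to genes. Levels are in CPM, counts scaled to a common library size that was corrected by edgeR's TMM factors, which centre the bulk of the genes, and 1 CPM stood for 14.0 to 23.4 counts. Dmd itself lay between 235 and 266 CPM in the WT libraries and between 46.4 and 51.1 CPM in the dEx51 libraries. The 10 fast-fibre markers, which define the labelled tissue, were present in both groups with none at 0. Their sum lay between 127750 and 131086 CPM for WT and between 85498 and 117155 CPM for dEx51. Taken singly, 0 of these markers were called higher and 0 lower. The 12 macrophage markers, none at 0, had sums from 85.2 to 175 CPM for WT, against 1003 CPM for dEx51 4, 1458 CPM for dEx51 5 and 691 CPM for dEx51 6, and 12 of 12 were called higher. Of 11 markers of regenerating fibres and myoblasts, none at 0, 8 were called higher and 0 lower, but their sums overlapped, at 1020.1 to 1069 CPM for WT and 947 to 1288 CPM for dEx51. Most of that sum was Myh8, the perinatal myosin gene, at 962 to 1006 CPM for WT and 631 to 903 CPM for dEx51 (log2 fold change -0.39, not called). Sums of 6 fibro-adipogenic progenitor markers ranged from 552 to 732 CPM for WT and from 791 to 972 CPM for dEx51, and 4 were called higher. Sums of 6 pericyte and smooth muscle markers ranged from 1109.5 to 1238 CPM for WT and from 719 to 831 CPM for dEx51, and 3 were called lower. Sums of 7 endothelial markers ranged from 468 to 552 CPM for WT and from 329 to 412 CPM for dEx51, and 4 were called lower. Sums of 7 Schwann cell markers ranged from 102 to 116 CPM for WT and from 73.4 to 78.4 CPM for dEx51, and 4 were called lower. Beside these counts, 16.1% of all genes tested were called higher and 11.9% lower, at an adjusted p under 0.05. The part these cell types play in the values below was not tested.

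Promoter sequence is shown for genes on which the results turn and for which RefSeq gives a start site on GRCm38.p6. The RefSeq table used held 8 of the 10 listed genes. It had no entry for Dusp26 or Dusp4, so their promoters were not searched. Each run covers the 210 bases furthest upstream in a window that begins 250 bases before the RefSeq start site. It is written 5′ to 3′ on the strand of the gene, in lower case, with matches to the motifs searched in capitals. The letters searched on both strands were CAGCTG (an E-box), TGACGTCA (the cyclic AMP response element, CRE), TGANTCA (AP-1) and ACCGGAAG (an ETS core), together with the MEF2 site and the CArG box, the element bound by serum response factor. Dusp5 (chr19:53528895-53529104, forward strand), the listed gene with the largest rise, held a pair of CArG boxes that adjoin without overlapping, a motif found in 1.24% of the 32817 promoter windows of this length.
Dusp5: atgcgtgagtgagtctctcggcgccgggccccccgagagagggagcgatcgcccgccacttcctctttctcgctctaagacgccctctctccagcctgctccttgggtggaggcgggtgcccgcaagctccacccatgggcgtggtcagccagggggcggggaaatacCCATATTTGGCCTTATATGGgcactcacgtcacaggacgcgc
Dusp8 (chr7:142095325-142095534, reverse strand) is shown because it was low in the mutant and held 2 copies of the CRE, which was present in 0.999% of windows. The window lies within an intron of the longer Dusp8 transcript model.
Dusp8: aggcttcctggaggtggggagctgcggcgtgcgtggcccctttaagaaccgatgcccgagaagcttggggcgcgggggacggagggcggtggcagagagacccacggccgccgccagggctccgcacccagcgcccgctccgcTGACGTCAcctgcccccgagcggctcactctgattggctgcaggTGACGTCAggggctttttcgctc
Dusp13 and its neighbour Dupd1 are shown because they lie side by side on the reverse strand of chromosome 14 and differed in direction. The first of 4 Dusp13 start sites (chr14:21748663-21748872) and the Dupd1 start site (chr14:21714617-21714826) each held a match to AP-1, which 5.84% of windows did.
Dusp13: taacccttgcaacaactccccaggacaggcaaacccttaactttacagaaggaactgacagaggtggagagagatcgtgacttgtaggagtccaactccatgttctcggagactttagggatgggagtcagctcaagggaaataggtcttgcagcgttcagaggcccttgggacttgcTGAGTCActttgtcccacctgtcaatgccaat
Dupd1: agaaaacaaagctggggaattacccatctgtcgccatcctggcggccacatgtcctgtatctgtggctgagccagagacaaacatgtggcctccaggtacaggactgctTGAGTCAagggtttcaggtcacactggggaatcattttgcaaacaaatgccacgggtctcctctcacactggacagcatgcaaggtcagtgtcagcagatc
Among the other listed genes, a CRE was also found upstream of Dusp1, an E-box upstream of the fourth Dusp13 start site, and no motif searched in the windows of Dusp3, Dusp6, Dusp7 and Dusp10. Of all windows, 10.8% held the E-box, 0.996% the ETS core and 0.396% the MEF2 site. These matches describe letters in a window and were not tested as binding sites.

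In wild-type muscle the listed transcripts differed widely per unit of length. In RPKM (CPM divided by the exon length in kilobases), Dusp3 was the most abundant at 32.0 ± 3.18 (SD, n = 3 here and below). Dusp13 followed at 26.2 ± 3.74, Dusp1 at 23.9 ± 4.29 and Dusp26 at 22.5 ± 2.51. The ranges of neighbours in this order overlapped. Dusp3 was above Dusp13, Dusp1 and Dusp26 in each WT library. The order of the latter genes varied between libraries and was not resolved. Dusp10 (16.6 ± 4.27), Dusp7 (14.4 ± 4.13), Dusp8 (8.91 ± 3.75) and Dusp6 (6.48 ± 0.594) came next, again with overlapping neighbours. Dusp4 (0.643 ± 0.150) and Dusp5 (0.265 ± 0.0239) lay far below and did not overlap with each other or with Dusp6. In the mutant, Dusp26 was number 7 in this order with 5.06 ± 0.618 RPKM, while Dusp3 stayed first at 36.4 ± 5.30 RPKM.

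**Figure D1:**
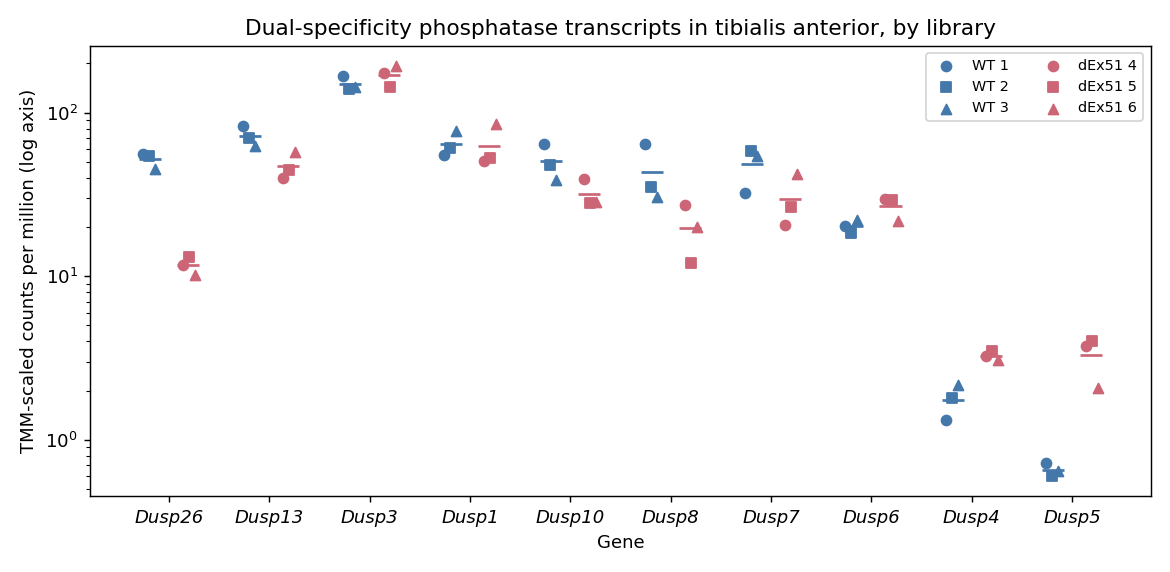
TMM-scaled CPM (log axis) of the 10 listed genes in each of 3 WT (blue) and 3 dEx51 (red) libraries; symbols mark libraries and bars mark group means. Dusp26 lies between 45.3 and 56.2 CPM in WT and between 10.2 and 13.1 CPM in dEx51, and Dusp5 is the gene with the widest gap in the other direction.

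Dusp26 is an atypical phosphatase expressed in muscle and brain, described as acting on p38 and ERK. Its gene (ENSMUSG00000039661) lies on the forward strand of chromosome 8 at 31089471 to 31097047 in GRCm38 and overlaps no other annotated gene. The transcript measured 56.2, 54.2 and 45.3 CPM across WT 1, 2 and 3, but 11.7, 13.1 and 10.2 CPM across dEx51 4, 5 and 6. Every mutant library lay far below every wild-type library, and the spread within each group was small, with the highest library 1.24 times the lowest in WT and 1.28 times in dEx51. The mutant mean was 22.5% of the wild-type mean (11.7 ± 1.43 against 51.9 ± 5.79 CPM), a log2 fold change of -2.15 (SE 0.129). By log2 fold change it ranked 14 of 14335 genes, counted from the lowest.

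A share within the family does not depend on how libraries are scaled. For Dusp26 it restates the fall for which the group was chosen and gives no separate support for it. Dusp26 made up 15.1%, 15.8% and 13.5% of the summed RPKM of the 10 genes across the WT libraries, but 4.49%, 5.46% and 3.34% across the dEx51 libraries. Over the same libraries the share of Dusp3 went from between 20.1% and 22.0% to between 29.4% and 33.3%. The level of Dusp3 itself overlapped between the groups, while the summed RPKM was lower in the mutant. That sum was 145 to 162 in the WT libraries and 104 to 133 in the dEx51 libraries. Per length, Dusp26 stood at between 0.642 and 0.789 of the Dusp3 level in each WT library, but at between 0.108 and 0.186 of it in each mutant library. The nearest coding gene on the side of the Dusp26 3′ end, Rnf122, begins 14772 bases away on the same strand and was at 7.82 ± 1.41 and 7.72 ± 1.10 CPM (log2 fold change -0.02 with SE 0.177, adjusted p = 0.939 by edgeR).

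**Figure D2:**
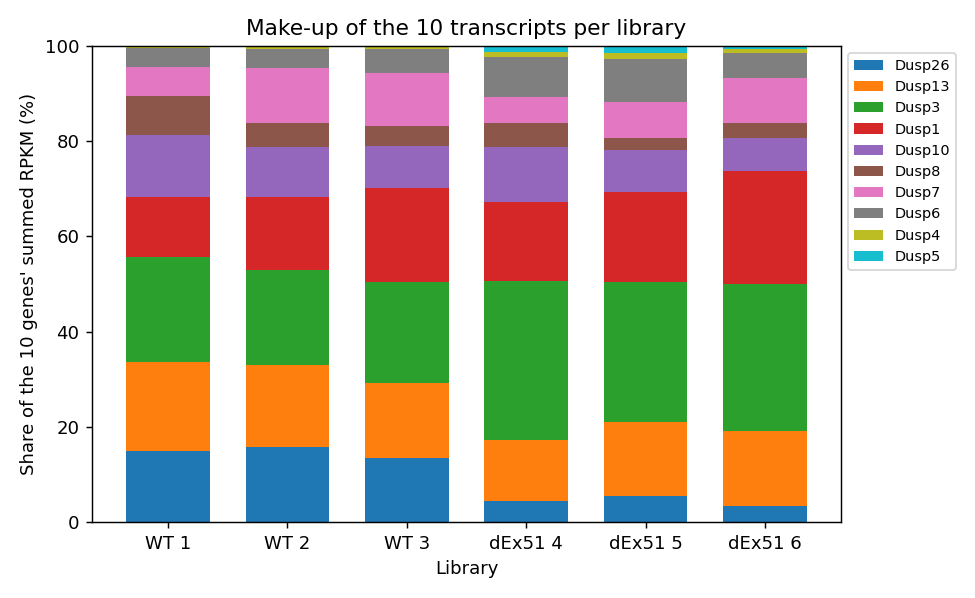
Share of the summed RPKM of the 10 listed genes held by each gene, as stacked bars for each library (y axis in percent, from 0 to 100). The Dusp26 segment at the foot of each bar takes 13.5% to 15.8% in the WT bars but 3.34% to 5.46% in the mutant bars, where the Dusp3 segment is wider.

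The 5 transcripts whose level followed that of Dusp26 most closely over the 6 libraries were looked for among 9700 other genes of at least 5 CPM. Likeness was the root mean square difference of log2 CPM after each gene was centred on its own mean. They were the uncharacterised gene 0610040J01Rik (0.215), Dmd itself (0.231), the calcium-binding protein gene Efcab6 (0.270), Ccdc85c (0.291) and the protein phosphatase inhibitor gene Ppp1r1a (0.325). Their log2 fold changes were -1.77, -2.37, -1.87, -1.78 and -2.68. The libraries belong to 2 genotypes, so the difference between the genotypes enters this measure, which is a description.

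Dusp13 holds alternative first exons that give a muscle and a testis phosphatase from the same locus, and the annotation lists 14 transcripts with 8 coding models. The deposited counts sum over all of them. Dusp13 measured 83.1, 69.8 and 62.9 CPM across the WT libraries against 39.8, 44.6 and 57.7 CPM across the dEx51 libraries, and the groups did not overlap. The mean was 65.9% of wild type (log2 fold change -0.60, SE 0.158), and dEx51 6 was the mutant library closest to WT. An antisense gene, Gm15935, and the coding gene Samd8 overlap Dusp13 on the opposite strand. Samd8, with 10220 counts over the 6 libraries against 6715 for Dusp13, was at 89.1 ± 7.66 and 88.6 ± 11.2 CPM (log2 fold change -0.01 with SE 0.116, adjusted p = 0.970 by edgeR). The sources used here do not state whether the authors counted by strand, so reads of the shared stretch are uncertain.

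Dupd1, also known as Dusp29, is a muscle-expressed atypical phosphatase and not one of the listed genes. Its gene lies 18817 bases from Dusp13 on the same strand of chromosome 14 (21676537 to 21714576). Dupd1 measured 21.5, 15.5 and 20.6 CPM across the WT libraries against 29.4, 24.4 and 45.5 CPM across the dEx51 libraries. Every mutant library was above every wild-type library, with dEx51 6 far above the rest, and the gene rose (log2 fold change 0.79 with SE 0.233, adjusted p = 0.0389 by edgeR). The call was lost without WT 1 (0.87), WT 2 (0.64), WT 3 (0.83), dEx51 4 (0.86) or dEx51 6 (0.49) and with limma-voom (0.75), while the direction was kept in each. Per length, Dusp13 stood at between 1.38 and 2.04 times the level of Dupd1 in the WT libraries. In the mutant libraries it stood at between 0.574 and 0.827 times that level. By this measure Dusp13 was the more abundant of the neighbouring pair in each WT library and Dupd1 in each mutant library. The switch rests on the exon lengths used, 2744 bases for Dusp13 over all its transcripts and 1242 for Dupd1. In CPM, Dusp13 was above Dupd1 in every library. On the far side of Dusp13, Vdac2, which encodes a mitochondrial channel, was at 234 ± 7.81 and 219 ± 9.23 CPM (log2 fold change -0.10, adjusted p = 0.432 by edgeR).

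**Figure D3:**
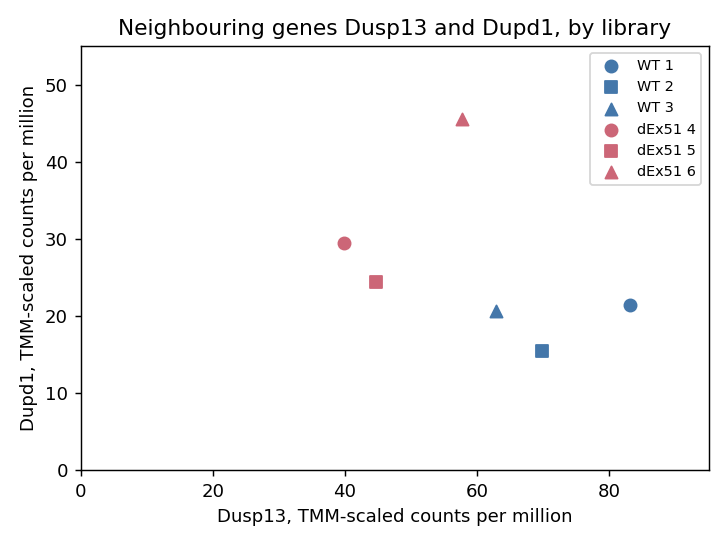
Level of Dusp13 (x axis) against that of its neighbour Dupd1 (y axis), both in TMM-scaled CPM, with 1 point per library. WT points (blue) lie to the lower right and dEx51 points (red) to the left and higher, and dEx51 6 has the highest Dupd1 level, 45.5 CPM.

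Dusp3, also known as VHR, is a small broadly expressed atypical phosphatase of ERK and JNK. It measured 167, 139.5 and 144 CPM across the WT libraries against 176, 143 and 192 CPM across the dEx51 libraries. The groups overlapped (log2 fold change 0.18, SE 0.130).

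Among the nuclear, inducible phosphatases, Dusp5 and Dusp4 were higher in the mutant and Dusp1 was not. Dusp5, which acts on ERK in the nucleus, measured 0.719, 0.603 and 0.645 CPM across the WT libraries, or 13, 11 and 9 counts. Across dEx51 4, 5 and 6 it measured 3.76, 4.02 and 2.08 CPM, or 88, 92 and 40 counts. All mutant libraries were above all wild-type libraries, and dEx51 6 was the lowest of the mutants. The means differed 5.02-fold (log2 fold change 2.32, SE 0.325), the largest rise of the 10 genes from the lowest wild-type level. An antisense gene covers the Dusp5 start site. Dusp4, a nuclear phosphatase of ERK, JNK and p38, measured 1.33, 1.81 and 2.15 CPM across the WT libraries against 3.25, 3.50 and 3.06 CPM across the dEx51 libraries, again without overlap (log2 fold change 0.90, SE 0.225). With 24 to 33 counts per wild-type library, the level of Dusp4 in WT is known only coarsely.

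Dusp1, an immediate-early phosphatase of p38, JNK and ERK, measured 54.9, 60.9 and 77.3 CPM across the WT libraries against 50.6, 52.9 and 84.7 CPM across the dEx51 libraries. Libraries dEx51 4 and 5 lay below all WT libraries and dEx51 6 lay above all of them (log2 fold change -0.04, SE 0.213). The sign of that value turned under library-size scaling (0.29) and without WT 3 (0.11), dEx51 4 (0.10) or dEx51 5 (0.08). Without dEx51 6 the value was -0.32. The gene overlaps Ergic1 on the opposite strand, which held 4025 counts over the libraries against 7207 for Dusp1. Its deposited exon length of 2697 bases is shorter than the 3311 bases of the annotation used here, so its RPKM depends on which is taken.

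The cytoplasmic ERK phosphatases Dusp6 and Dusp7 had differences of opposite sign. Dusp6, a feedback inhibitor of ERK, measured 20.4, 18.4 and 22.1 CPM across the WT libraries against 29.7, 29.4 and 21.7 CPM across the dEx51 libraries. In this gene dEx51 4 and 5 were above all wild-type libraries while dEx51 6 lay among them (log2 fold change 0.41, SE 0.142, or 0.54 without dEx51 6). Dusp7 measured 32.4, 58.2 and 54.2 CPM across the WT libraries against 20.4, 26.5 and 42.2 CPM across the dEx51 libraries. WT 1 fell within the mutant range and dEx51 6 lay nearer to WT (log2 fold change -0.70, SE 0.293). Without WT 1 the value was -0.93, and without dEx51 6 it was -1.04.

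Dusp8 and Dusp10, phosphatases of JNK and p38, were both lower in the mutant on average, with wide spreads. Dusp8 measured 64.3, 35.3 and 30.5 CPM across the WT libraries against 27.3, 12.0 and 20.04 CPM across the dEx51 libraries. The groups did not overlap, yet the highest library was 2.11 times the lowest within WT and 2.27 times within dEx51 (log2 fold change -1.14, SE 0.346). Dusp10 measured 64.4, 48.0 and 38.7 CPM across the WT libraries against 39.4, 28.0 and 28.6 CPM across the dEx51 libraries, where dEx51 4 was just above WT 3 (log2 fold change -0.66, SE 0.203). WT 1 and dEx51 4 share biological replicate number 1 in the labels. They held the highest Dusp8 and Dusp10 and the lowest Dusp7 of their groups. With both left out, a step added after seeing the data, the log2 fold change was -1.045 for Dusp8, -0.62 for Dusp10 and -0.71 for Dusp7. In that fit Dusp13 (-0.38) and Dusp4 (0.74) were no longer called.

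**Figure D4:**
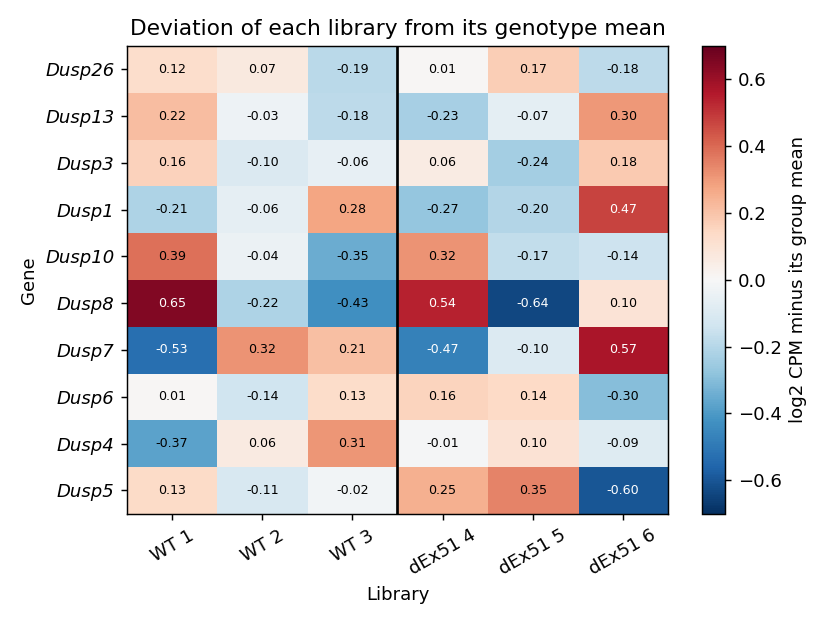
Deviation of each library's log2 CPM from the mean of its genotype, for the 10 listed genes (rows) and 6 libraries (columns); red is above and blue below the group mean. Dusp8 reaches 0.65 above its group mean (WT 1), while Dusp26 stays within 0.19 of its group mean in every library.

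The library dEx51 6 stood apart within the mutant group for several of the genes. It had the lowest Dusp4, Dusp5, Dusp6 and Dusp26 and the highest Dusp1, Dusp3, Dusp7 and Dusp13 of the 3 mutant libraries. Among 3 libraries each is often an extreme. The gaps were small for Dusp4 (3.06 against 3.25 and 3.50 CPM) and Dusp26 (10.2 against 11.7 and 13.1 CPM). Library dEx51 6 also had the lowest summed macrophage markers (691 CPM) and the highest summed fast-fibre markers (117155 CPM) among the mutants. Without dEx51 6, Dusp5 had a log2 fold change of 2.56 and Dusp26 of -2.07. The part of the cell make-up of this muscle in these values was not tested.

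By the fit over all genes, 2 of the 10 listed genes were called higher (Dusp4 and Dusp5) and 4 lower (Dusp8, Dusp10, Dusp13 and Dusp26) at an adjusted p under 0.05, where 16.1% of all genes tested were called higher and 11.9% lower. In 2 genes all mutant libraries lay above WT and in 3 all lay below, where this held for 23.8% and 21.7% of genes tested. Nothing is read from these counts, since the group was chosen with this contrast known. The 10 genes had a median log2 fold change of -0.32, and all genes tested one of -0.01. Over the 18 alternatives run for each gene, the log2 fold change ran from 1.00 to 2.69 for Dusp5 and from -2.25 to -1.64 for Dusp26. These ranges, and the changes of call below, describe how the values move with the processing and support nothing about the group. The call of Dusp4 was lost without WT 1 (0.72), WT 2 (0.92), dEx51 4 (0.91) or dEx51 5 (0.86), and that of Dusp13 without WT 1 (-0.49), WT 2 (-0.63), dEx51 4 (-0.49) or dEx51 5 (-0.55). The call of Dusp8 was lost without WT 1 (-0.74), WT 2 (-1.27), dEx51 5 (-0.86) or dEx51 6 (-1.145), and that of Dusp10 without WT 1 (-0.45), WT 2 (-0.70), dEx51 5 (-0.56) or dEx51 6 (-0.58). In the robust fit neither Dusp8 nor Dusp10 was called. Dusp6 gained a call without dEx51 6, and Dusp7 without WT 1 or dEx51 6. The number called lower was 2 without WT 1 and 1 without WT 2 or dEx51 5. Over all genes those fits called 1229, 663 and 759 lower, against 1701 with all libraries.

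Scaling matters for this comparison, because scaling by library size alone put the median of all genes tested at a log2 fold change of 0.34. Under it, 4 of the listed genes were called higher (Dusp3, Dusp4, Dusp5 and Dusp6) and 1 lower (Dusp26). Over all genes, 5394 were then higher and 334 lower, against 2309 and 1701. The values of Dusp26, Dusp8, Dusp10 and Dusp13 became -1.795, -0.79, -0.30 and -0.265. Each difference given here is thus set against the middle of the tested genes. The authors' deposited table of the comparison gives log2 fold changes of -2.19 for Dusp26, 2.29 for Dusp5, 0.88 for Dusp4 and -1.17 for Dusp8.

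Beyond the listed genes, 16 of 19 further genes named for the family or closely related to it could be tested. They were not used to choose the group, but this list and those below were drawn up with earlier results of these data known. Of the 16 tested, 2 rose and 4 fell, where 16.1% of all genes tested were called higher and 11.9% lower. The median log2 fold change of the 16 was -0.11 against -0.01 over all genes. Dusp14, a small phosphatase also called MKP6, rose from 7.19 ± 0.495 to 13.9 ± 1.48 CPM (log2 fold change 0.95 with SE 0.127, adjusted p = 0.00216 by edgeR), and Dupd1 was the other. Dusp28 fell from 16.6 ± 2.07 to 10.2 ± 0.883 CPM (log2 fold change -0.71 with SE 0.129, adjusted p = 0.00664 by edgeR). Epm2a, which encodes the glycogen phosphatase laforin, fell from 142 ± 4.61 to 93.6 ± 16.2 CPM (log2 fold change -0.60 with SE 0.126). The pseudophosphatase gene Styx fell from 13.0 ± 0.561 to 9.47 ± 0.652 CPM (log2 fold change -0.46 with SE 0.1101). Dusp15, named after its values were seen, was the other gene that fell, at 0.934 ± 0.0505 and 0.386 ± 0.174 CPM. Calls of this list numbered 1 higher without WT 2, WT 3 or dEx51 4 and 2 lower without WT 2 or WT 3. Over all genes the same omissions gave 1346, 1837 and 1688 higher and 663 and 1242 lower, against 2309 and 1701. With library-size scaling the list had 5 higher and 0 lower, beside 5394 and 334 of all 14335 genes tested. Styx was not called without WT 2 (-0.49), WT 3 (-0.43) or dEx51 4 (-0.40).

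**Figure D5:**
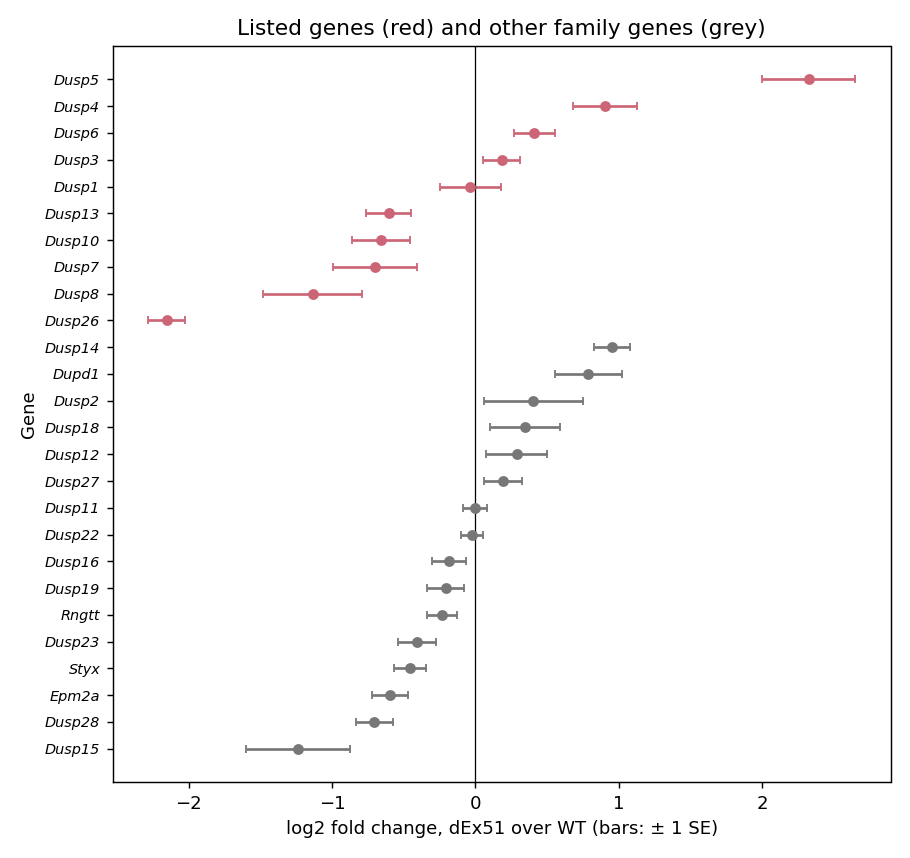
Log2 fold change of dEx51 over WT (x axis, bars ± 1 SE) for the 10 listed genes (red) and the 16 tested further genes of the family (grey). Dusp26 at -2.15 and Dusp5 at 2.32 lie furthest from 0, and of the grey points only Dusp15 lies more than 1 log2 unit from it.

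The kinases on which these phosphatases act showed small differences. Of 10 MAP kinase genes tested from 13 listed, 0 rose and 2 fell (median log2 fold change -0.11), a number near the 11.9% of all genes tested that were called lower. Mapk9, which encodes JNK2, fell from 86.0 ± 4.56 to 62.4 ± 6.46 CPM (log2 fold change -0.46 with SE 0.0999, adjusted p = 0.0120 by edgeR), and Mapk12, the muscle-rich p38 gamma gene, from 128 ± 10.9 to 102 ± 5.50 CPM (log2 fold change -0.34 with SE 0.0962, adjusted p = 0.0335 by edgeR). Scaled to library size alone, Mapk9 was at -0.12 and Mapk12 at 0.01, and neither was called. That scaling called 4 kinases of the list higher, beside 5394 of all 14335 genes tested. Mapk12 also lost its call without WT 1 (-0.31), WT 2 (-0.31), dEx51 4 (-0.37) or dEx51 5 (-0.29), and 3 kinases were lower without dEx51 6. Without dEx51 6, 2157 of all genes were called lower, against 1701 with all libraries.

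Of 22 upstream kinase genes, 0 rose and 5 fell (median -0.19), beside 16.1% called higher and 11.9% called lower over all genes tested. Leaving out a library gave 1 (without WT 2 or dEx51 5), 3 (without WT 1 or dEx51 4) or 8 (without dEx51 6) lower. Over all genes these omissions gave, in the same order, 663, 759, 1229, 986 and 2157 lower, against 1701 with all libraries. Map2k7, an activator of JNK, fell from 63.1 ± 5.75 to 43.9 ± 5.05 CPM (log2 fold change -0.52 with SE 0.114, adjusted p = 0.0123 by edgeR) and lost its call without WT 2 (-0.50). Map2k6, an activator of p38, fell from 59.1 ± 1.79 to 37.5 ± 8.70 CPM (log2 fold change -0.66 with SE 0.153) and lost its call without WT 2 (-0.68) or dEx51 5 (-0.59). Map3k4 fell by 0.60 on the log2 scale (SE 0.140) and lost its call without dEx51 5 (-0.50). Under library-size scaling 3 genes of the list were higher and 0 lower, beside 5394 and 334 of all 14335 genes tested. Map2k7, Map2k6 and Map3k4 were then at -0.18, -0.32 and -0.25.

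Of 9 MAPK-activated kinase genes tested from 10 listed, 0 rose and 3 fell (median -0.32), beside 16.1% called higher and 11.9% called lower over all genes tested. Without WT 2, 2 of the list fell, and 663 of all genes were called lower, against 1701 with all libraries. Rps6ka2, a ribosomal S6 kinase gene, fell from 247 ± 32.5 to 133 ± 16.8 CPM (log2 fold change -0.90 with SE 0.135, adjusted p = 0.00330 by edgeR) and was also called under library-size scaling. Mapkapk2, a target of p38, fell from 291 ± 13.4 to 206 ± 17.3 CPM (log2 fold change -0.50 with SE 0.0981), and Mknk2 from 277 ± 23.6 to 198 ± 8.54 CPM (log2 fold change -0.48 with SE 0.0983). The calls of these latter genes ended under library-size scaling (-0.15 and -0.13), and that of Mknk2 also without WT 2 (-0.45).

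Genes that respond to ERK signalling or feed back on it had 7 of 25 higher and 0 lower (median 0.26), against the 16.1% and 11.9% of all genes tested. Spred1, an inhibitor of the RAS to ERK step, rose from 26.0 ± 2.30 to 41.9 ± 3.28 CPM (log2 fold change 0.69 with SE 0.103, adjusted p = 0.00305 by edgeR). Fosl2, an AP-1 subunit gene, rose from 21.6 ± 3.46 to 35.1 ± 4.98 CPM (log2 fold change 0.70 with SE 0.146, adjusted p = 0.0107 by edgeR). Egr1, an immediate-early factor gene, was at 3.73 to 4.01 CPM in WT against 19.6, 9.49 and 7.43 CPM in dEx51 4, 5 and 6, and rose from 3.91 ± 0.157 to 12.2 ± 6.49 CPM (log2 fold change 1.64 with SE 0.350, adjusted p = 0.0116 by edgeR). The other 4, named after their values were seen, were the transcription factor genes Fos (1.20), Junb (1.33), Myc (1.01) and Etv4 (0.69). Without WT 2, 1 gene of the list was called, Spred1 (0.63), and Fosl2 was then at 0.63 and Egr1 at 1.6. That fit called 1346 of all 14764 genes tested higher, against 2309 with all libraries. The sprouty genes Spry1, Spry2 and Spry4, other feedback inhibitors named after their values were seen, had log2 fold changes of -0.03, 0.15 and 0.17 and were not called. Library-size scaling gave 13 higher and 0 lower, where it called 5394 of all 14335 genes tested higher and 334 lower.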

How the data were processed

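Stranded mRNA libraries of tibialis anterior muscle, 3 WT and 3 dEx51, were analysed from the authors' tables. The build GRCm38 and the tools FastQC (0.11.4), featureCounts (1.6.0) and edgeR (3.30.1) come from the submitters' processing notes. No source used here names the aligner or the strand setting of the counting. The authors deposited raw counts per gene (whole numbers, not normalized) with exon lengths, RPKM values, and a comparison table of log2 fold changes, a likelihood-ratio score, p-values and −log10 p-values, per the file headers.

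Counts were fitted in R 4.3.3 with edgeR 4.0.16 (glmQLFit and glmQLFTest, a quasi-likelihood test), with TMM factors, the default filter by group (14335 genes), two-sided p-values with Benjamini-Hochberg adjustment, and calls at an adjusted p under 0.05. The SE is the absolute log2 fold change over the square root of F. Chi-square per degree of freedom between replicates of a group was 8.52 to 48.0, far above counting noise. The scripts were tested on simulated data. Coordinates are those of GENCODE M21 on GRCm38, and promoter sequence is RefSeq's.

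Named genes are the listed members, the genes next to Dusp26 and Dusp13, the 5 profiles nearest to Dusp26, and from each gene list up to 4 called genes ranked by adjusted p, of which at most 3 share the sign of the list's median. Others are said to be named after their values were seen. The members and lists were chosen with earlier results of these data known. Alternatives were other scalings and filters, DESeq2 1.42.0, limma-voom (limma 3.58.1), edgeR's robust fit, a fit with a replicate block, the omission of each library, and limma-trend on the deposited RPKM values, logged after adding 0.1 or 1.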

Additional observations from a re-analysis of the deposited data

How the results depend on the processing

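Over all genes, 2309 higher and 1701 lower calls became 5394 and 334 under library-size scaling, 5222 and 309 on deposited RPKM with a pseudocount of 0.1, 5071 and 308 with a pseudocount of 1, and 1440 and 686 without WT 1 and dEx51 4 together, which was added after seeing the data. Leaving out single libraries gave 1346 (without WT 2) to 2662 higher and 663 (without WT 2) to 2157 lower, with 986 lower without dEx51 4 and 759 without dEx51 5. For the listed genes, 2 higher and 4 lower became 4 and 1 under library-size scaling and on RPKM with either pseudocount, 2 lower in the robust fit, 1 higher without WT 1 and dEx51 4 together, and 1 to 3 higher and 1 to 4 lower without single libraries. Genes of the fixed lists gave 13 higher and 20 lower calls, against 35 and 3 under library-size scaling, 32 and 3 on RPKM with either pseudocount, 20 higher without a filter, 7 and 7 without WT 1 and dEx51 4 together, and 4 to 17 higher and 9 to 26 lower without single libraries, with the lowest counts of both without WT 2 and with 8 higher without WT 3 and 11 lower without dEx51 5. The cause was not tested.

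The replicate block used the biological replicate numbers of the labels. Deviations of same-numbered libraries correlated at 0.327 (WT 1 with dEx51 4), -0.021 (WT 2 with dEx51 5) and 0.0428 (WT 3 with dEx51 6). Differently numbered libraries correlated at between -0.19 and 0.151. The value of WT 1 with dEx51 4 lay above that range and the other same-numbered values lay within it. The main fit did not pair the samples by these numbers. With the block, 2508 genes were higher and 1960 lower, 2 of the listed genes were higher and 5 lower, with Dusp7 (-0.72) called, and 15 genes of the fixed lists were higher and 23 lower.

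Signs turned in 6 of the genes named, under these settings. Under library-size scaling, and on RPKM with pseudocounts of 0.1 and 1, the log2 fold change was 0.29, 0.285 and 0.27 for Dusp1, 0.013, 0.0137 and 0.0132 for Mapk12, 0.0064, 2.0e-04 and 3.4e-04 for Ppm1b, 0.25, 0.25 and 0.246 for Vdac2, 0.32, 0.295 and 0.15 for Rnf122, and 0.335, 0.335 and 0.31 for Samd8. Without single libraries it ran from -0.32 to 0.11 for Dusp1, from -0.13 to 0.13 for Rnf122 and from -0.11 to 0.067 for Samd8. Without WT 1 and dEx51 4 together it was 0.095 for Rnf122 and 0.115 for Samd8, and Samd8 was at 0.0074 without a filter. Depth limits Dusp5, with 9 to 13 counts per WT library, and Dusp4.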

Other observations

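Other phosphatase families were measured beside the listed genes. Of 12 tested genes from 14 of other dual-specificity subfamilies, 2 rose and 2 fell (median log2 fold change -0.12), near the 16.1% called higher and 11.9% called lower over all genes tested. Ptp4a3, a small membrane-anchored phosphatase gene, fell from 588 ± 81.4 to 295 ± 20.3 CPM (-0.99, SE 0.128, edgeR adjusted p = 0.00187), and Ptpmt1, which encodes a mitochondrial phosphatase, from 20.4 ± 0.758 to 15.8 ± 0.302 CPM (-0.37, SE 0.0889). Cdc25b, an activator of cyclin-dependent kinases, rose from 1.99 ± 0.537 to 6.20 ± 2.21 CPM (1.63, SE 0.320, edgeR adjusted p = 0.00863). Ptpmt1 lost its call without WT 2 (-0.40), dEx51 4 (-0.36) or dEx51 5 (-0.37) and under library-size scaling (-0.02). The counts of this list lay between 1 and 4 higher and 1 and 3 lower when single libraries were left out. Over all genes those fits gave from 1346 to 2662 higher and from 663 to 2157 lower.

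Among 10 tested of 11 other phosphatase genes, most of them known to act on MAPK, 1 rose and 4 fell (median -0.25), beside 16.1% called higher and 11.9% called lower over all genes tested. Of the list, 2 fell without WT 1, WT 2 or dEx51 5, where 1229, 663 and 759 of all genes were lower, against 1701. Ptpn7, a phosphatase gene of blood cells that binds ERK and p38, rose from 0.509 ± 0.204 to 2.78 ± 0.988 CPM (2.46, SE 0.414, edgeR adjusted p = 0.00507), in the libraries in which 12 of 12 macrophage markers were higher. The part of these cells in the rise was not tested. Ppm1k, a mitochondrial phosphatase gene of branched-chain amino acid breakdown, fell from 46.1 ± 7.95 to 23.2 ± 1.57 CPM (-0.99, SE 0.137, edgeR adjusted p = 0.00238), Ppm1a from 282 ± 7.82 to 197 ± 18.2 CPM (-0.52, SE 0.0978) and Ppm1b from 221 ± 6.36 to 174 ± 10.8 CPM (-0.35, SE 0.0882). Ppm1b lost its call without WT 1 (-0.35), WT 2 (-0.33) or dEx51 5 (-0.32). Scaled to library size alone, 3 genes of this list were higher and 1 lower, beside 5394 and 334 of all 14335 genes tested. Ppm1a (-0.17) and Ppm1b were then not called.

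Of 5 genes whose products are reported to bind or be acted on by DUSP26, 1 was called (16.1% of all genes tested were called higher): Kif3a, a kinesin motor gene, at 9.73 ± 0.542 and 12.8 ± 1.34 CPM (0.40, SE 0.121, edgeR adjusted p = 0.0426). The call was lost when any of the 6 libraries was left out (0.32 to 0.46) and by DESeq2 (0.40). Another gene of the list took the count of 1 without WT 1 or dEx51 6.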
